A study of Homo sapiens with 15 samples.

Results

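Metastasis suppressor genes were followed in 2 human breast cancer cell lines exposed to macrophage-conditioned medium (CM). The 6 genes described are CD82, MTSS1, NME1, NME4, BRMS1 and HTATIP2, taken by their function from the 84 target genes of a quantitative PCR plate on tumor metastasis, and all 6 had a value in each of the 6 comparisons available. The cells were MDA-MB-231 and MDA-MB-468, both established lines derived from triple-negative breast cancer, a class without estrogen receptor, progesterone receptor or HER2 amplification. Each line was either left unstimulated or kept, per the series labels, for 24 h in CM of monocyte-derived macrophages (MDM) from donors, which had been polarised beforehand with medium of MDA-MB-231 or MDA-MB-468 cells. The study's text gives another duration of exposure than the labels. The labels do not say which of these media primed the MDM behind a given sample. They list 15 samples. MDA-MB-231 contributes 3 exposed to CM and 4 unstimulated, and MDA-MB-468 contributes 4 of each. Neither line carried a genetic change made for the study, and cultured lines stand for 1 tumor each.

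Metastasis suppressors are genes whose loss or silencing lets a tumor cell spread to distant organs while leaving growth of the primary tumor largely as it was. CD82 encodes a tetraspanin that gathers integrins and growth factor receptors in the cell membrane. MTSS1 encodes a scaffold that bends membranes and binds actin. NME1 and NME4 encode nucleoside diphosphate kinases, the NME4 product working in mitochondria. BRMS1 is a subunit of histone deacetylase corepressor complexes, and HTATIP2 encodes a pro-apoptotic protein that inhibits nuclear import. Tumors often show less mRNA of these genes without a mutation in them.

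Each value is a fold change, the transcript's amount in a CM sample over that in an unstimulated sample, relative to a reference gene measured on the same plate. The reference was RPLP0 for the MDA-MB-468 plates and ACTB for those of MDA-MB-231. There were 3 comparisons per line, named here by the number of the unstimulated control, 2, 3 or 4, and a gene's mean is the geometric mean of the 3. The comparisons with controls 3 and 4 are both headed with CM sample 3, so whether they share a CM sample is not settled, and no test was run on them. The headers of the MDA-MB-468 comparisons also name an MDA-MB-231 control, whereas the study's own table presents the same values as CM-treated against control cells of MDA-MB-468. If the headers were literally right, every MDA-MB-468 fold change would hold the difference between the lines as well, the fall of CD82 included. Genes known to be deleted in one of the lines bear on this. RB1, which MDA-MB-468 cells are known to lack, had fold changes in MDA-MB-468 of 0.0859, 0.0744 and 0.0474 against controls 2, 3 and 4, and a mean of 0.841 in MDA-MB-231. CDKN2A, which MDA-MB-231 cells are known to lack, had values in MDA-MB-468 of 0.986, 1.07 and 0.496, none of them far above 1. In MDA-MB-231 its values were 1.19, 2.47 and 1.72, and those against controls 2 and 4 equalled the value of the reverse transcription control wells in the same comparison. SMAD4, also known to be deleted in MDA-MB-468, had means of 0.172 there and 0.127 in MDA-MB-231. Which unstimulated cells stand behind the MDA-MB-468 values is not settled by these genes. A gene was called raised when its mean was over 2 with all 3 comparisons above 1, and lowered when its mean was under 0.5 with all 3 below 1. These ratios hold no level, so how abundant each transcript was is not known here, and in a bulk sample fewer cells expressing a gene and less RNA of it per cell cannot be told apart.

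In MDA-MB-468, CD82 had a mean fold change of 0.433, and it was the one suppressor gene of the 6 that was called lowered. The other 5 all had means below 1 in this line, from 0.527 for MTSS1 to 0.856 for HTATIP2. In MDA-MB-231 none of the 6 was called raised or lowered, and their means lay between 0.696 for HTATIP2 and 1.05 for MTSS1. Over the 84 target genes, 3.57% were lowered in each line, whereas 27.4% were raised in MDA-MB-468 cells and 31% in MDA-MB-231. The median of the 6 means was 0.638 in MDA-MB-468 cells and 0.981 in MDA-MB-231, beside 0.894 and 1.10 over the 84 genes. Means below 1 were common on the plate in MDA-MB-468, where 56% of the target genes had one, compared with 36.9% in MDA-MB-231.

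**Figure D1:**
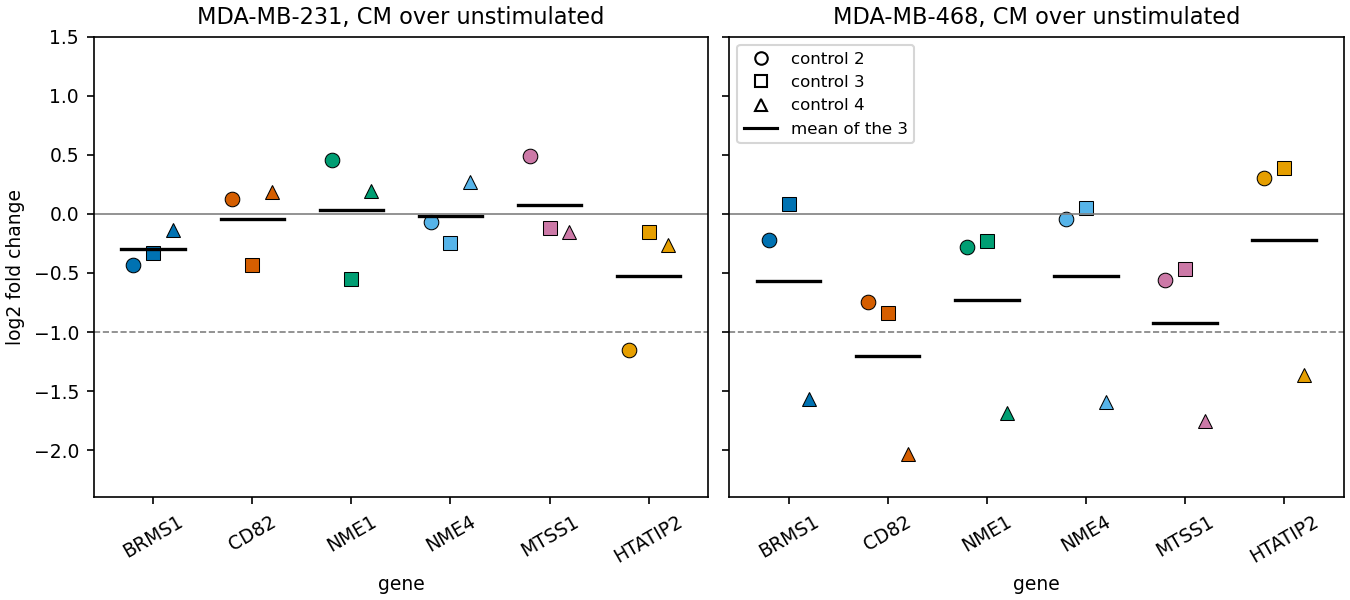
Log2 fold change (CM over unstimulated) of the 6 metastasis suppressor genes on the vertical axis, by gene and by line; each symbol is 1 comparison, the black bar is the mean of the 3, and the dashed line marks a fold change of 0.5. In MDA-MB-468 the comparison with control 4 lies below the other two for each gene, and CD82 is the gene whose bar lies below the dashed line.

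CD82 in MDA-MB-468 had fold changes of 0.596, 0.560 and 0.244 against controls 2, 3 and 4 (log2 SD 0.72, n = 3). All 3 lay below 1, and against control 4 the value was 2.37-fold lower than the mean of the other two. CD82 ranked 5, 5 and 3 from the lowest of the 84 genes in these comparisons, and its mean ranked 3. Without the comparison with control 4 the mean was 0.578, which is below 1 but no longer passes the call. In MDA-MB-231 its fold changes were 1.09, 0.740 and 1.14, with a mean of 0.973 (log2 SD 0.34, n = 3) on both sides of 1.

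The promoters of CD82 and NME1 are shown because, of the 5 genes of the 6 with an entry in the RefSeq promoter table (BRMS1, CD82, NME1, NME4 and HTATIP2), these had the lowest means in MDA-MB-468. Each runs from 250 bases before to 50 after the start in that table (build GRCh38.p14), and both lie on the plus strand, CD82 at chr11:44565413-44565712 and NME1 at chr17:51153309-51153608. Capitals mark the GC box GGGCGG, a binding sequence of Sp1-type factors, in CD82 and the AP-1 sequence TGANTCA in NME1. Both motifs were searched on both strands.
CD82: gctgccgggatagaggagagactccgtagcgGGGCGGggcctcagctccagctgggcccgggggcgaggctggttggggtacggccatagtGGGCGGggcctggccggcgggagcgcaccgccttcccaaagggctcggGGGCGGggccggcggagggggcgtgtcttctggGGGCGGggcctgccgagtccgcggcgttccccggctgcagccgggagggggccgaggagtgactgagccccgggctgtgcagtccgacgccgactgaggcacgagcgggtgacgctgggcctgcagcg
NME1: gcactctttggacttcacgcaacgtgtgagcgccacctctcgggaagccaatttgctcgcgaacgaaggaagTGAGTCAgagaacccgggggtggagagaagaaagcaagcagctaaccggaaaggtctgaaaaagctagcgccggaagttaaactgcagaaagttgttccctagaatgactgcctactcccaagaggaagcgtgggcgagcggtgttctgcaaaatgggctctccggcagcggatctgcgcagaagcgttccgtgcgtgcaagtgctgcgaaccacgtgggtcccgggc
The CD82 window held 4 GC boxes and no AP-1 sequence at a GC content of 76.7%, and the NME1 window held 1 AP-1 sequence and no GC box at 57.3%. GC boxes numbered 7 in the NME4 window, 2 in that of HTATIP2 and 0 in that of BRMS1, and none of these 3 held the AP-1 sequence. Of all 35116 promoters of the same length, 45.0% held a GC box, 7.71% held the AP-1 sequence, and the median GC content was 58.7%. As many GC boxes as CD82 or more were held by 9.06%, as many as NME4 or more by 1.5%, and as many as HTATIP2 or more by 26.7%. The genes themselves span chromosome 11, 44564409 to 44620358 (CD82), and chromosome 17, 51153559 to 51162168 (NME1). NME4 lies on chromosome 16 from 396729 to 400754, BRMS1 on chromosome 11 from 66337339 to 66345104 and HTATIP2 on the same chromosome from 20363714 to 20383782. The CD82 and NME4 windows lie wholly inside the spans of these genes, so their starts in the promoter table are not the first bases of the spans. These matches describe the sequence alone, and binding of a factor was not measured in these cells.

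MTSS1, the membrane and actin scaffold, came next to CD82 in MDA-MB-468. Its fold changes were 0.681, 0.723 and 0.297 against controls 2, 3 and 4, and the mean of 0.527 (log2 SD 0.72, n = 3) did not pass the call. All 3 values were below 1, with that against control 4 again the lowest, and without it the mean was 0.702. In MDA-MB-231 MTSS1 had fold changes of 1.40, 0.921 and 0.902, a mean of 1.05 (log2 SD 0.36, n = 3). That was the highest mean of the 6 genes in MDA-MB-231, although 1 value alone, against control 2, was above 1.

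The nucleoside diphosphate kinase genes were neither raised nor lowered in either line. NME1 in MDA-MB-468 had fold changes of 0.825, 0.852 and 0.311, all below 1, with a mean of 0.603 (log2 SD 0.83, n = 3) that became 0.839 without control 4. In MDA-MB-231 its values were 1.37, 0.683 and 1.15, a mean of 1.02 (log2 SD 0.52, n = 3), so the 3 comparisons did not share a direction. NME4, whose product is mitochondrial, had fold changes in MDA-MB-468 of 0.973, 1.04 and 0.332. Its mean of 0.695 (log2 SD 0.92, n = 3) rested on control 4, and without that comparison it was 1.01. NME4 in MDA-MB-231 had fold changes of 0.954, 0.841 and 1.20, with a mean of 0.988 (log2 SD 0.26, n = 3).

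With ACTB as the reference, BRMS1, the corepressor subunit, had the smallest spread of the 6 in MDA-MB-231. Its fold changes there were 0.743, 0.796 and 0.908, each below 1, with a mean of 0.813 (log2 SD 0.15, n = 3). In MDA-MB-468 they were 0.860, 1.06 and 0.337, and the mean of 0.675 (log2 SD 0.88, n = 3) became 0.954 without control 4. HTATIP2, the pro-apoptotic gene, was highest of the 6 in MDA-MB-468 and lowest in MDA-MB-231. Its fold changes in MDA-MB-231 were 0.450, 0.901 and 0.832, a mean of 0.696 (log2 SD 0.55, n = 3), and without the comparison with control 2 the mean was 0.866. In MDA-MB-468 they were 1.23, 1.31 and 0.388, a mean of 0.856 (log2 SD 0.99, n = 3) that lay above 1, at 1.27, without control 4.

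The order of the genes was steadier in MDA-MB-468 than the size of their fold changes. In each of its 3 comparisons CD82 was the lowest of the 6, followed by MTSS1 and then NME1, with BRMS1 and NME4 above them and HTATIP2 the highest. In MDA-MB-231 the lowest gene was HTATIP2 against controls 2 and 4 and NME1 against control 3. For neighbouring genes in the order of the means, the ranges of the fold changes over the 3 comparisons overlapped in both lines, and in MDA-MB-468 these ranges include the low values against control 4. Below 1 in all 3 comparisons were BRMS1 and HTATIP2 in MDA-MB-231, 2 of 6 genes where the whole plate had 15.5%. In MDA-MB-468 these were CD82, NME1 and MTSS1, 3 of 6 beside 22.6% of the plate. None of the 6 was above 1 in all 3 comparisons of either line, which held for 42.9% of the plate in MDA-MB-231 cells and for 28.6% in MDA-MB-468.

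The comparison of MDA-MB-468 with control 4 stood apart over the target genes of the plate. Against control 4 all 6 suppressor genes had fold changes under 0.5, from 0.244 to 0.388, but so did 42.9% of the 84 target genes, compared with 2.38% against control 2 and 4.76% against control 3. The median fold change of the 84 genes was 0.528 there, while it was 1.12 and 1.28 in the other MDA-MB-468 comparisons and between 0.974 and 1.31 in MDA-MB-231. The positive PCR control wells, which hold a template supplied with the plate and no cell RNA, moved the same way. Their mean was 0.436 on the same scale against control 4 of MDA-MB-468, and 2.02 and 1.12 against controls 2 and 3. The housekeeping genes did not share this fall. Relative to RPLP0, against control 4 of MDA-MB-468, ACTB was 0.811, GAPDH 0.942, HPRT1 0.980 and B2M 3.10. The 3 reverse transcription control wells held 1 identical value in each comparison, as wells set to a fixed cut-off would, so no shift was read from them. The part of these shifts in the values of the suppressor genes was not tested.

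**Figure D2:**
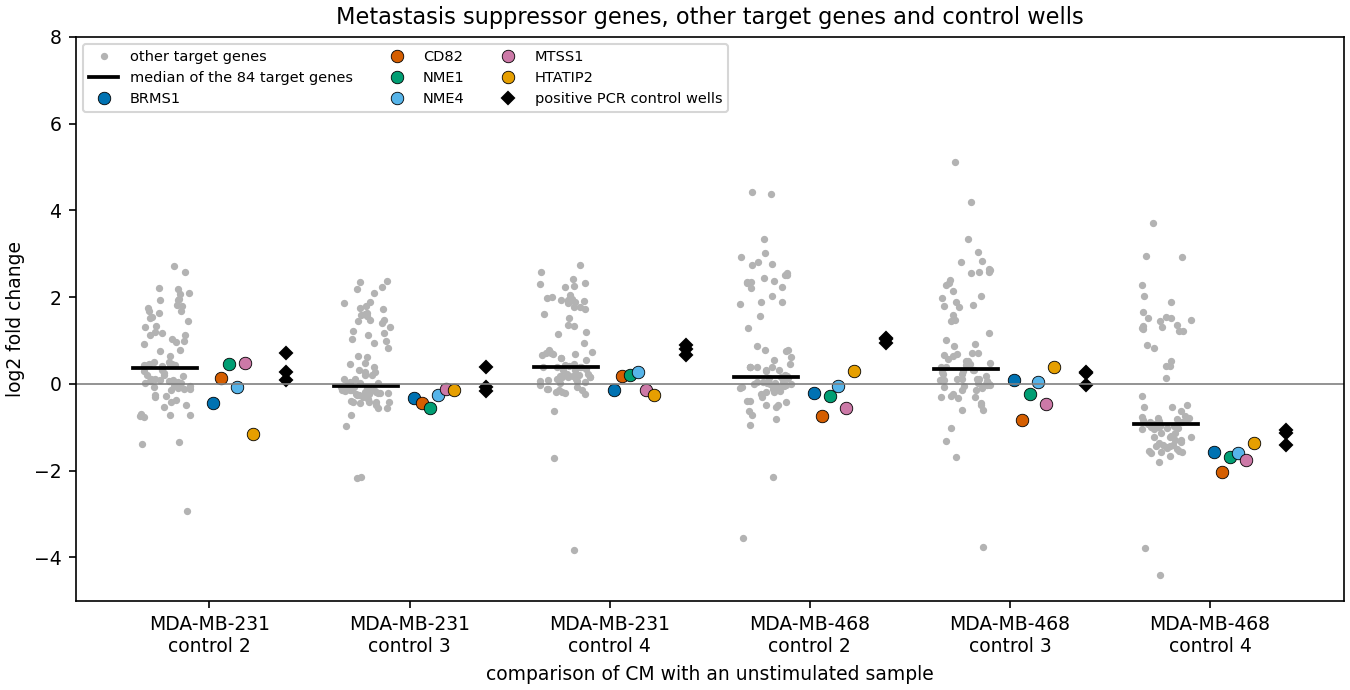
Log2 fold change (vertical axis) in each of the 6 comparisons of CM with an unstimulated sample; colored circles are the 6 metastasis suppressor genes, gray points the other target genes, black bars the median of the 84 target genes and black diamonds the 3 positive PCR control wells. Against control 4 of MDA-MB-468 the bulk of the plate, the control wells and all 6 genes lie below 0, and most of the colored circles lie below the black bar in each comparison.

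Set against the plate instead of a single reference gene, most of the 6 genes lay low in both lines. Each fold change was divided by the median of the 84 target genes in the same comparison. CD82 in MDA-MB-468 then had values from 0.438 to 0.531 and a mean of 0.475, and its log2 SD decreased from 0.72 to 0.14. MTSS1 lay between 0.564 and 0.606 with a mean of 0.578 (log2 SD 0.06, n = 3), so that its range and that of CD82 did not overlap on this scale, and NME1 between 0.590 and 0.735 with a mean of 0.661. The means of BRMS1, NME4 and HTATIP2 on this scale were 0.740, 0.762 and 0.939. The spread decreased for the plate too, the median log2 SD of the 84 genes in MDA-MB-468 being 0.70 before and 0.21 after this division. In MDA-MB-231 the means relative to the plate median were 0.590 for HTATIP2, 0.688 for BRMS1, 0.824 for CD82, 0.837 for NME4, 0.867 for NME1 and 0.891 for MTSS1. The log2 SD in MDA-MB-231 increased for HTATIP2, from 0.55 to 0.71, and for BRMS1, from 0.15 to 0.25. It decreased for CD82, NME4, NME1 and MTSS1.

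Below the plate median in all 3 comparisons were BRMS1, CD82, NME4 and HTATIP2 in MDA-MB-231, 4 of 6 genes. In MDA-MB-468 these were the 5 genes other than HTATIP2. The share of all 84 genes with this property was 34.5% in each line. BRMS1, CD82 and NME4 were below the median in all 6 comparisons, 3 of 6 genes beside 17.9% of the plate. The plate was assembled from genes tied to metastasis, and many of them were called raised. Its median is therefore not a neutral level, and a value below it does not by itself show less transcript.

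Between the lines, the 3 comparisons did not overlap for CD82 and MTSS1. The lowest MDA-MB-231 value of CD82, 0.740, lay above its highest MDA-MB-468 value, 0.596, and the ratio of the means was 2.25. For MTSS1 the corresponding values were 0.902 and 0.723, with a ratio of the means of 2.00. The MTSS1 values also stayed apart with ACTB or RPLP0 in both lines. With GAPDH in both lines they overlapped, the corresponding values being 0.792 and 0.869. NME1, NME4, BRMS1 and HTATIP2 overlapped between the lines, with ratios of MDA-MB-231 over MDA-MB-468 of 1.70, 1.42, 1.20 and 0.814. These 2 of 6 genes stand beside 23.8% of the 84 target genes whose comparisons did not overlap between the lines in either direction, and beside 15.5% with MDA-MB-231 above MDA-MB-468, the direction of both genes. Nothing particular to so short a list is read from these shares. The difference between the lines was not tested, it depends on the unsettled denominator of the MDA-MB-468 values, and the lines were set against different reference genes.

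The choice of the reference decided the call of CD82. In MDA-MB-468 its mean was 0.368 relative to the 5 housekeeping genes together and 0.492 relative to the 4 without B2M, both lowered. Relative to ACTB or GAPDH it was 0.505 and 0.502, just outside the limit, so the call depended on which housekeeping gene was used. The positive PCR control wells as the reference gave 0.435. B2M, itself one of the 5 housekeeping genes, had a mean fold change of 3.75 in MDA-MB-468. MTSS1 ranged from 0.448 to 0.615 over the housekeeping references and was lowered only with the mean of all 5. In MDA-MB-231 the housekeeping references moved CD82 between 0.953 and 1.12, BRMS1 between 0.795 and 0.934 and HTATIP2 between 0.682 and 0.800, and lowered none of the 6 genes.

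**Figure D3:**
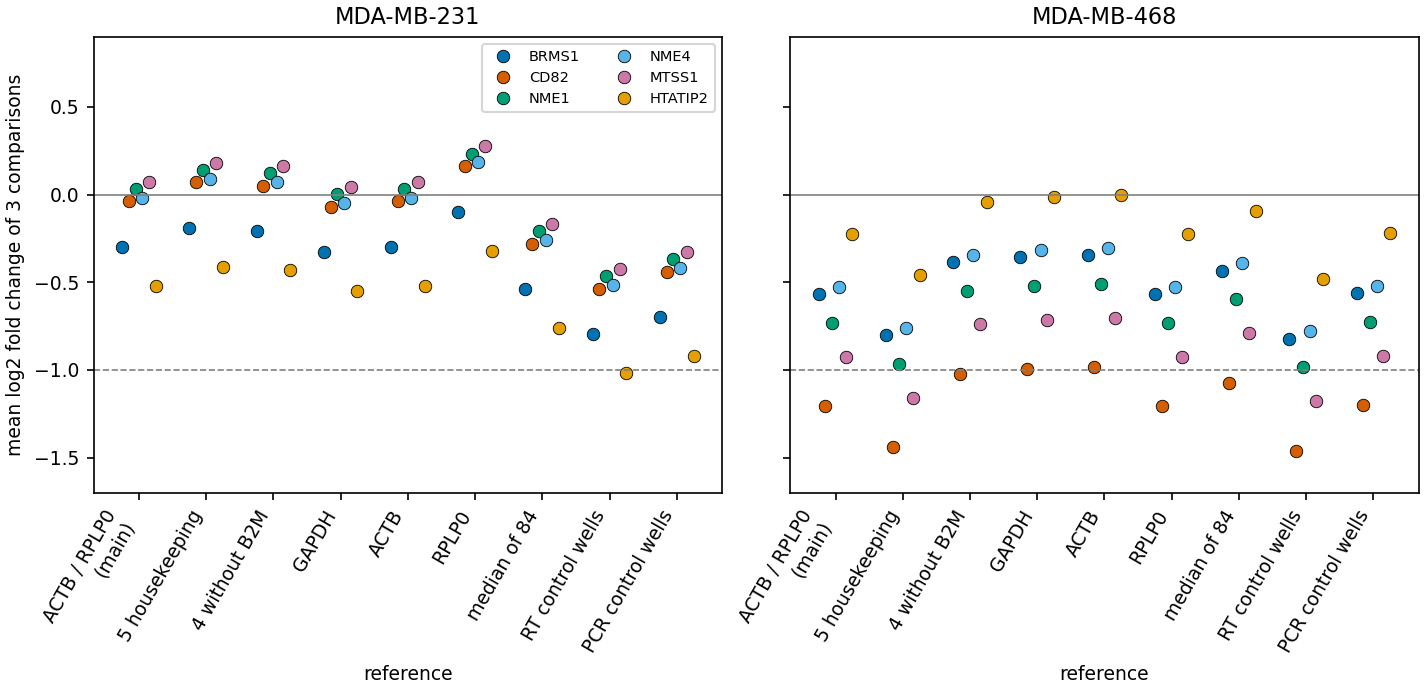
Mean log2 fold change of the 6 metastasis suppressor genes over 3 comparisons (vertical axis) under 9 settings of the reference (horizontal axis), for each line, where main is ACTB for MDA-MB-231 and RPLP0 for MDA-MB-468; the dashed line marks a fold change of 0.5. A change of reference moves all genes of a comparison alike, so the order of the means cannot differ between the settings. CD82 is the lowest gene in MDA-MB-468 and HTATIP2 in MDA-MB-231. The mean of CD82 in MDA-MB-468 lies above the dashed line only with ACTB and GAPDH.

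Among the 83 other target genes, the 3 with a pattern closest to that of CD82 were CTBP1, MTSS1 and DENR. Closeness was the Euclidean distance over the 6 log2 fold changes, which was 0.65 for CTBP1, 0.77 for MTSS1 and 0.86 for DENR. CTBP1, a transcriptional corepressor, had mean fold changes of 0.550 in MDA-MB-468 cells and 0.944 in MDA-MB-231. DENR, a translation initiation and recycling factor, had means of 0.542 and 1.17. Within the 83 genes, NME1 took place 5 by this distance, NME4 13, BRMS1 14 and HTATIP2 38. A shift common to all genes of a comparison cancels in these distances.

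Other genes with metastasis suppressor functions on the plate differed in direction. Of CDH1, KISS1, NF2, SYK, TIMP2, TIMP3 and TIMP4, 2 of 7 were raised in MDA-MB-231, 1 of 7 in MDA-MB-468, and none was lowered in either line. The MDA-MB-231 count includes KISS1, whose mean there lay just over the limit of 2, as given below. The raised shares stand beside 31% and 27.4% of the whole plate, and the absence of lowered genes beside 3.57% in each line. The tumor suppressors SMAD4 and RB1 were not in this list, and of them SMAD4 was called lowered in both lines and RB1 in MDA-MB-468, where these and CD82 were the 3 lowered genes of the plate. KISS1, the precursor of the kisspeptins, was raised in both. Its mean of 2.01 in MDA-MB-231 cells lay just over the limit, and fell under 2 without control 4 or with GAPDH as the reference. Relative to the plate median the MDA-MB-231 values of KISS1 were 1.59, 1.61 and 1.93. In MDA-MB-468 KISS1 had values of 10.1, 8.24 and 7.75 that gave a mean of 8.65. Even against control 4, where the 6 genes above were at their lowest, KISS1 was thus far above 1. SYK, a tyrosine kinase, rose to 2.87 in MDA-MB-231 cells and had a mean of 0.545 in MDA-MB-468. TIMP3, an inhibitor of metalloproteinases, had a mean of 0.552 in MDA-MB-468, from 0.398 to 0.739, and of 0.917 in MDA-MB-231. The median of the 7 genes was 0.848 in MDA-MB-468 cells and 1.43 in MDA-MB-231, higher than that of the 6 genes in both lines.

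Genes whose products work with NME1 or BRMS1 were read in the same way. SET, which binds the NME1 product and is known as its inhibitor, fell in MDA-MB-231 to fold changes of 0.396, 0.228 and 0.652, a mean of 0.389. In MDA-MB-468 SET had a mean of 0.692 and was not called. CHD4, CTBP1 and MTA1, subunits or partners of corepressor complexes, were neither raised nor lowered in either line, with means in MDA-MB-468 of 0.662, 0.550 and 0.668. All 4 partner genes thus had means below 1 in MDA-MB-468, as 56% of the plate did, and their median was 0.665 there and 0.968 in MDA-MB-231.

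**Figure D4:**
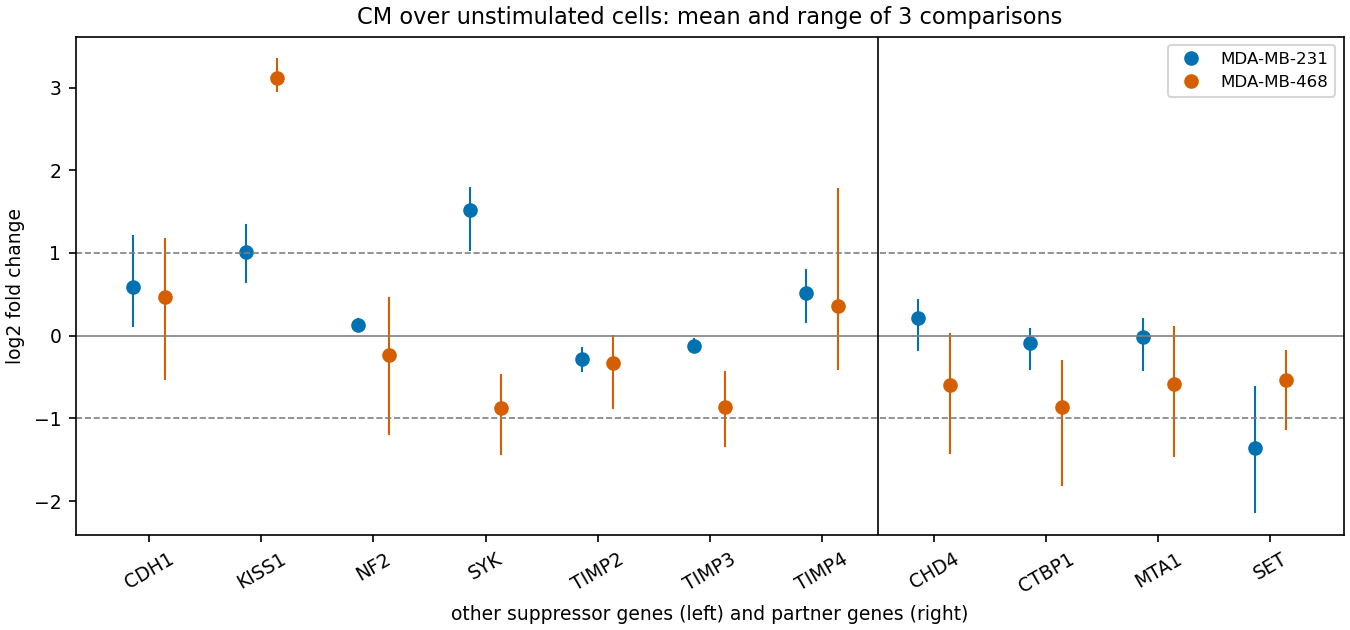
Mean log2 fold change (points) and range over 3 comparisons (bars) of 7 other suppressor genes and 4 partner genes, in MDA-MB-231 (blue) and MDA-MB-468 (orange); dashed lines mark fold changes of 2 and 0.5. KISS1 in MDA-MB-468 lies far above the upper dashed line, SYK lies on opposite sides of 0 in the lines, and SET in MDA-MB-231 has the one mean below the lower line.

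Genes that macrophages express had wells on the same plate. Of CCL7, CST7, HGF, IGF1, IL18, IL1B, MMP9 and SYK, 5 of 8 were raised in MDA-MB-468 cells and 6 of 8 in MDA-MB-231, beside 27.4% and 31% of the whole plate. Their median fold change lay between 2.86 and 3.69 over the MDA-MB-231 comparisons and between 2.77 and 3.89 over those of MDA-MB-468. Tumor cells can express several of these genes, and the part of carried-over RNA in the values of the suppressor genes was not tested.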

How the data were processed

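Total RNA of both lines was extracted with a column kit, treated with DNase I, reverse transcribed and run on an RT2 Profiler PCR array, a SYBR Green plate of 96 wells with 84 target genes, 5 housekeeping genes and 7 control wells. The authors analyzed threshold cycles with GeneGlobe and deposited linear ratios (fold changes) of CM over unstimulated samples, normalized to the 5 housekeeping genes. There are 3 numbered ratios per line, and the unnumbered column of each line was checked to be their geometric mean, so it was not counted. Wells were paired with symbols through the study's supplementary plate list.

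Each ratio was divided by that of ACTB (MDA-MB-231) or RPLP0 (MDA-MB-468), the genes that the study's table sets to 1. Means are geometric, and SDs are on the log2 scale. Named genes were the 6 suppressor genes, genes of the lists that were called with at most 4 others per list, the housekeeping genes and control wells, the 3 genes nearest to CD82, and RB1 and SMAD4 for the identity of the unstimulated cells. CDKN2A was named for the same purpose after its values were seen. A further gene first drawn up for the other suppressor list is not reported here and was left out of the counts of that list. The 6 genes and the lists were chosen with earlier results of these data known.

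Another 16 columns of threshold cycles were not used here, since their names match no sample label, and they were not assigned by order. Levels in unstimulated cells are therefore not analysed here, and the planned limma fits (including the interaction between lines and the replicate block) were not run. Depth does not apply to these ratios, and the 3 comparisons per line limit the precision. Samples were grouped by the labels. Alternatives were 6 other references, leaving out each comparison, and a fold past 2 or 0.5 in every comparison. The reverse transcription and positive PCR control wells as references were chosen after seeing the data. Values were computed in Python 3.11.15 (numpy 2.4.6; pandas 2.3.3), and plots drawn with matplotlib 3.10.9.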

Additional observations from a re-analysis of the deposited data

Results flagged for a closer look

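SYK, a tyrosine kinase listed both with the other suppressor genes and with the macrophage genes, had mean log2 values of -0.88 in MDA-MB-468 cells and 1.52 in MDA-MB-231 (fold change, CM over unstimulated). It was singled out because all 3 comparisons of MDA-MB-231 were above 0 and all 3 of MDA-MB-468 below 0, and the difference was not tested. None of the 6 metastasis suppressor genes had such opposite directions.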

How the results depend on the processing

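The count of suppressor genes lowered in MDA-MB-468, 1 as reported, was 0 with ACTB or GAPDH as the reference and 0 when each comparison had to be under 0.5. It was 2 (CD82 and MTSS1) with the 5 housekeeping genes averaged or the reverse transcription control wells, and leaving out 1 comparison gave 0 to 2 (0 without control 4). In MDA-MB-231 the count was 1 (HTATIP2) with the reverse transcription wells, against 0 as reported. The suppressor genes whose comparisons did not overlap between the lines, 2 as reported, numbered 4 with the 5 housekeeping genes averaged and 1 with GAPDH, the positive PCR wells or the reverse transcription wells. Of the 84 target genes, those lowered in MDA-MB-468, 3 as reported, numbered 11 with the 5 housekeeping genes averaged, 12 with the reverse transcription wells, and 2 to 10 on leaving out 1 comparison (9 without control 2, 10 without control 3). Those lowered in MDA-MB-231 numbered 1 instead of 3 when each comparison had to pass, and those raised there 16 instead of 26 with the reverse transcription wells. The reverse transcription wells held 1 identical value in each comparison, so the values with that reference may rest on a fixed cut-off and do not show a working alternative. Of the alternative values for these counts, 91 stayed near the reported one, 19 moved, and no called value changed direction. No paired analysis was possible because a replicate block needs values of single samples, and the threshold cycle columns carry no label numbers. The ratios are themselves values within pairs, of which those with controls 2 and 3 carry matching numbers. Setting undetected wells to a fixed cycle needs those columns and was not run.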
